A study of Mus musculus with 2 samples.

Results

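The 10 genes described here set the pace of the G1 phase of the cell cycle in the embryonic mouse cortex. They are the D-type cyclins *Ccnd1*, *Ccnd2* and *Ccnd3*, the kinases *Cdk4* and *Cdk6* that these cyclins switch on, the CIP/KIP inhibitors *Cdkn1a* (p21), *Cdkn1b* (p27) and *Cdkn1c* (p57), and the pocket proteins *Rb1* and *Rbl1* (p107). They were taken by symbol from the 32285 genes of the count tables, each symbol matched 1 gene identifier, and all 10 passed the filter on low counts of every test below.

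D-type cyclins build up in G1 in answer to growth signals and bind CDK4 or CDK6. The active kinases phosphorylate the pocket proteins, which then release E2F transcription factors, and E2F turns on the genes of DNA synthesis. CIP/KIP proteins bind cyclin-kinase complexes and hold cells in G1 or out of the cycle. In the embryonic cortex, radial glial cells (RGCs) divide at the ventricle, intermediate progenitor cells (IPCs) divide fewer times in the subventricular zone, and projection neurons have left the cycle. CDKN1C is known in the cortex as an inhibitor linked to cell cycle exit, and *Ccnd2* RNA as one that is carried into the basal endfeet of RGCs.

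Single cell RNA sequencing (scRNA-seq) was performed on cells dissociated from WT mouse dorsal telencephalon at embryonic day (E) 14.5. The labels name both samples EoMltt3 and give the genotype only as WT, while the study's text speaks of C57BL6/J embryos. Which alleles or transgenes the WT embryos carried, if any, and whether embryos were pooled is not given in the sources used here. There was 1 group of 2 samples, called replicates 1 and 3 after their labels, so every comparison is between cell classes of the same libraries and not between treatments.

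The libraries held 6163 and 8870 cell barcodes with 64182006 and 93295807 unique molecular identifiers (UMIs), each of which marks 1 captured RNA molecule, and 23 barcodes occurred in both. After filters, 12084 cells in 26 clusters remained. RGC-like cells numbered 2315 (706 and 1609), IPC-like cells 1846 (670 and 1176), projection neuron-like (PN-like) cells 5861 (2698 and 3163) and interneuron-like cells of the medial ganglionic eminence (MGE) 556 (333 and 223). Clusters were named from their markers, so the marker levels describe the classes and do not test the names. The summed level of 12 RGC markers was 8101 and 6306 UMIs per 1000000 UMIs of the summed cells (CPM) in RGC-like cells against 1379 and 1316 CPM in IPC-like cells. The 8 IPC markers summed to 2187 and 2121 CPM in IPC-like cells and to 307 and 249 CPM in RGC-like cells. Projection neuron markers were also present in IPC-like cells, at 1993 and 2024 CPM against 7140 and 6971 CPM in PN-like cells, and 1 of the 3 IPC-like clusters had more projection neuron than IPC markers on. The 10 genes and their pathway genes were kept out of the clustering.

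The genes lie on 7 chromosomes of the GRCm38.p6 (mm10) build, by RefSeq. *Rbl1* spans chr2:157145893-157204534, *Cdk6* chr5:3341004-3531008, *Ccnd2* chr6:127125162-127152188 and *Cdkn1b* chr6:134920401-134925525. *Cdkn1c* lies at chr7:143458339-143461059, *Ccnd1* at chr7:144929931-144939831, *Cdk4* at chr10:127063535-127067288 and *Rb1* at chr14:73192858-73325951. *Cdkn1a* at chr17:29090979-29100722 and *Ccnd3* at chr17:47505051-47599689 complete the set. All 10 overlap at least 1 other annotated gene, mostly noncoding RNAs on the opposite strand. *Cdkn1c*, *Ccnd3* and *Rb1* also overlap noncoding RNA genes on their own strand, whose reads cannot be told apart from theirs where exons coincide.

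RefSeq promoter windows of 300 bases, from 250 before to 50 after the start site, were found for 6 of the 10 genes (*Rbl1*, *Cdk6*, *Cdkn1b*, *Cdk4*, *Cdkn1a* and *Ccnd3*). They were searched on both strands for the E2F-type letters TTTCCCGC, TTTCGCGC, TTTGCCGC and TTTGGCGC. *Rbl1* alone of the 6 held one, and of all 32851 promoter windows 2.26% did. The 30 bases just before its start site are shown because *Rbl1* rose from the called G1 to S phase in both progenitor classes, as described with the phases. Capitals mark the 8 letters of the match, which begin 18 bases before the start (GRCm38.p6, minus strand, chr2:157204535-157204564).
Rbl1: caagaaggcgatTTTCGCGCgctttgtcgc
A match of letters is a description and not evidence of binding.

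Levels were first compared between the classes. UMIs were summed per class and library, and 8 such sums were fitted with edgeR's quasi-likelihood test across 15403 genes. Log2 fold changes (log2 FC) are given with their standard error (SE), n = 2 libraries per class, and Benjamini-Hochberg adjusted p over all genes. Whether the libraries came from separate embryos is not given, so p-values measure the spread between these 2 libraries, which may be technical. Between IPC-like and RGC-like cells, 7 of the 10 genes passed the threshold of 0.05 (4 higher and 3 lower in IPC-like cells), where 43.8% of all genes tested passed (21.5% higher and 22.4% lower). Between PN-like and IPC-like cells 8 of 10 passed, all lower in neurons, where 48.1% of all genes did (25.7% higher and 22.4% lower). Between PN-like and RGC-like cells 8 of 10 passed (2 higher and 6 lower), where 64.9% of all genes did (35.2% higher and 29.7% lower). The median log2 FC of the 10 genes was 0.25, -0.80 and -1.01 in the 3 comparisons, against -0.0015, 0.019 and 0.071 over all genes tested.

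**Figure D1:**
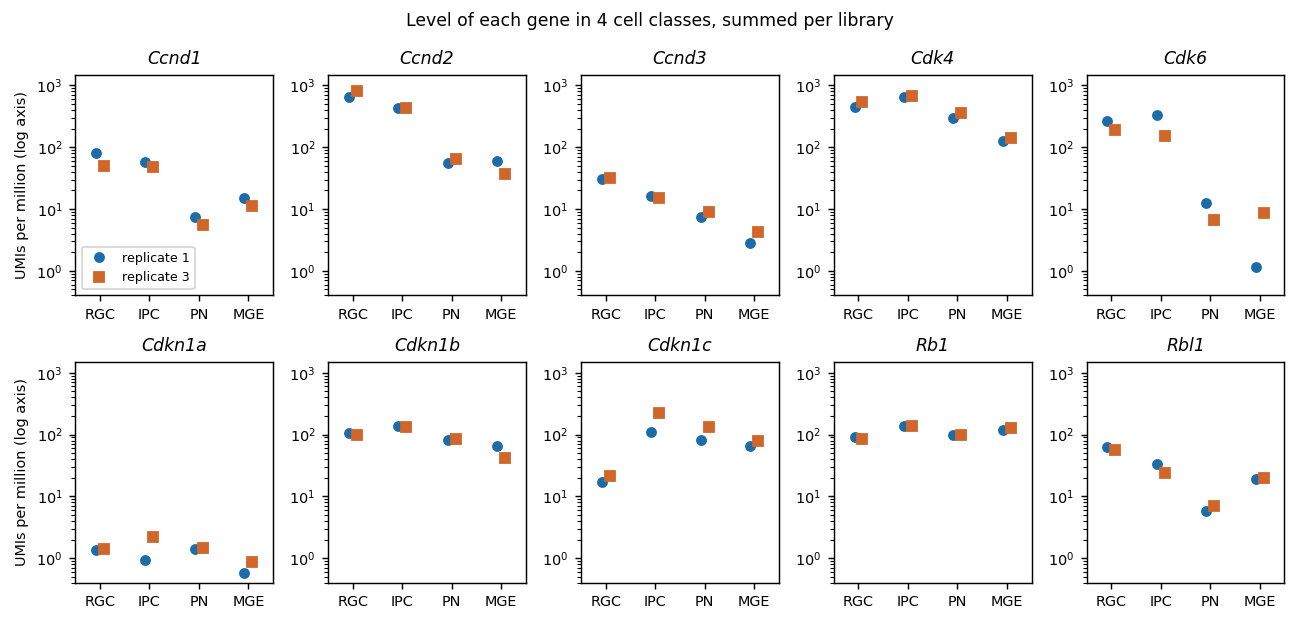
Level of each of the 10 genes, in CPM on a log axis, in RGC-like (RGC), IPC-like (IPC), PN-like (PN) and MGE interneuron-like (MGE) cells. Each point is the summed count of 1 library (circles, replicate 1; squares, replicate 3), and in the step from IPC-like cells to neurons *Cdk6* drops from 334 and 150 to 12.6 and 6.55 CPM while *Rb1* goes from 138 and 136 to 97.8 and 96.9 CPM.

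*Ccnd2* was by far the most abundant D-type cyclin RNA of the progenitors. Its level was 652 and 814 CPM in RGC-like cells of replicates 1 and 3, 429 and 433 CPM in the IPC-like sums, and 56.5 and 63.7 CPM in PN-like cells. The libraries of the 3 classes did not overlap. It was lower in IPC-like than in RGC-like cells (log2 FC -0.67 ± 0.17, edgeR adjusted p = 0.0125) and fell further in neurons (log2 FC -2.69 ± 0.18, edgeR adjusted p = 7.66e-06).

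*Ccnd1*, the cyclin most often named in growth factor responses, stood at 82.2 and 48.8 CPM in the RGC-like libraries and at 57.7 and 48.2 CPM in the IPC-like ones. These ranges overlapped, and the difference did not pass (log2 FC -0.20 ± 0.23, edgeR adjusted p = 0.518). In PN-like cells *Ccnd1* was at 7.32 and 5.54 CPM, which was lower than in IPC-like cells (log2 FC -2.87 ± 0.26, edgeR adjusted p = 3.46e-05) in both libraries.

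*Ccnd3* was the least abundant of the cyclins in progenitors, at 30.7 and 32.4 CPM in RGC-like, 16.1 and 15.2 CPM in IPC-like, and 7.57 and 9.11 CPM in PN-like cells. The fall was stepwise. From RGC-like to IPC-like cells the log2 FC was -0.91 ± 0.13 (edgeR adjusted p = 0.000782) and from IPC-like cells to neurons -0.75 ± 0.13 (edgeR adjusted p = 0.00188).

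A 3' tag is counted once per captured molecule whatever its length, so UMIs of the 3 cyclins were also put side by side as shares, with the limit that capture can differ between genes. *Ccnd2* made up 85.2% (95% Wilson interval 84.4 to 86.0) and 90.9% (90.5 to 91.3) of the D-type cyclin UMIs of RGC-like cells. In IPC-like cells its share was 85.3% (84.2 to 86.4) and 87.2% (86.3 to 88.0), and in PN-like cells 79.1% (77.4 to 80.8) and 81.3% (79.8 to 82.7). The share of *Ccnd3* was 4.01% and 3.61% in RGC-like cells and 10.6% and 11.6% in PN-like cells. Intervals cover counting error only. In endothelial-like cells 55.6% (48.6 to 62.4) and 62.9% (56.7 to 68.7) of these UMIs came from *Ccnd1*, and 13.8% and 11.8% from *Ccnd2*.

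In cells thinned to 3000 UMIs, which evens out depth, 80.0% ± 2.28 (SD, n = 2) of RGC-like cells held a *Ccnd2* UMI and 15.3% ± 4.38 a *Ccnd1* UMI. Both RNAs were found together in 14.6% and 10.2% of RGC-like cells, and *Ccnd1* without *Ccnd2* in 3.8% and 2.04%. Of IPC-like cells, 35.9% and 33.7% held neither, and of PN-like cells 86.6% and 83.3%. In a cluster of red blood cell-like cells, set beside these classes, 7.22% ± 1.38 held a *Ccnd2* UMI. There 0 of 48 and 0 of 61 cells held a *Ccnd1* UMI, which allows shares of up to 6.25% and 4.92% of cells with a UMI. These were the cells of that cluster with at least 3000 UMIs, and their median depth before thinning was 6430.5 and 7364 UMIs. Whether such cells make D-type cyclin RNA of their own was not tested. The whole red blood cell-like class averaged 147 CPM of *Ccnd2* and 29.3 CPM of *Ccnd3*, against 60.1 and 8.34 CPM in PN-like cells. The share of PN-like cells with *Ccnd2* was 13.2% ± 2.82. Their share with *Ccnd1*, 2.06% ± 0.41, lay under the limits that these counts of 0 allow, and that with *Ccnd3*, 2.48% ± 0.02, lay below the 3.5% ± 2.0 of red blood cell-like cells. Thinning left out 22 and 39 RGC-like, 4 and 42 IPC-like and 66 and 116 PN-like cells. Without it the share with *Ccnd2* was 96.5% in RGC-like, 89.2% in IPC-like and 32.0% in PN-like cells.

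The kinases fell by very different amounts at the step to neurons. *Cdk6* stood at 262 and 192 CPM in the RGC-like libraries and at 334 and 150 CPM in IPC-like cells, and at 12.6 and 6.55 CPM in PN-like cells. The IPC-like libraries differed from each other by more than the classes did, and no difference between IPC-like and RGC-like cells was detectable (log2 FC 0.18 ± 0.40, edgeR adjusted p = 0.752). The fall to neurons was the steepest of the set (log2 FC -4.49 ± 0.47, edgeR adjusted p = 9.03e-05).

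*Cdk4* was at 455 and 540 CPM in RGC-like, 640 and 683 CPM in IPC-like, and 300 and 361 CPM in PN-like cells. It was highest in IPC-like cells in both libraries (log2 FC against RGC-like cells 0.51 ± 0.13, edgeR adjusted p = 0.0139). *Cdk4* remained common in neurons, where 58.0% ± 4.09 of thinned cells held a UMI against 8.49% ± 2.73 of red blood cell-like cells. Its fall from IPC-like cells to neurons (log2 FC -0.86 ± 0.13, edgeR adjusted p = 0.000824) was small beside that of *Cdk6*. With the number of cells as the scale, so that values are per cell rather than per UMI, the difference between IPC-like and RGC-like cells was 0.09 and did not pass (edgeR adjusted p = 0.571). Against RGC-like cells, *Cdk4* was only just lower in neurons (log2 FC -0.35 ± 0.13, edgeR adjusted p = 0.0429), and the call was lost with stricter cell filters (edgeR adjusted p = 0.187).

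Among the inhibitors, *Cdkn1c* differed most between RGC-like and IPC-like cells. It was at 16.9 and 21.1 CPM in RGC-like cells, at 110 and 220 CPM in IPC-like cells and at 82.6 and 133 CPM in PN-like cells. Both IPC-like libraries lay above both RGC-like ones, although they differed widely from each other. The rise was the largest among the 10 genes in this comparison (log2 FC 3.20 ± 0.35, edgeR adjusted p = 0.00019). No change from IPC-like cells to neurons passed (log2 FC -0.48 ± 0.31, edgeR adjusted p = 0.241), except in the fit that blocks on the library (log2 FC -0.45, edgeR adjusted p = 0.0244). A UMI was present in 3.54% ± 0.04 of thinned RGC-like cells and in 26.4% ± 6.32 of IPC-like cells, against 1.04% ± 1.47 of red blood cell-like cells. Without thinning these shares were 8.40%, 46.6% and 1.93%.

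*Cdkn1b* changed less. Its level was 105 and 99.5 CPM in RGC-like, 137 and 131 CPM in IPC-like, and 82.2 and 85.2 CPM in PN-like cells. It was higher in IPC-like than in RGC-like cells (log2 FC 0.48 ± 0.14, edgeR adjusted p = 0.0229) and lower in neurons than in IPC-like cells (log2 FC -0.53 ± 0.14, edgeR adjusted p = 0.0128). The first of these calls was lost when the number of cells (0.06, edgeR adjusted p = 0.778) or library sizes alone (0.39, edgeR adjusted p = 0.0534) set the scale. Without the IPC-like cluster rich in neuronal markers it was 0.34 (edgeR adjusted p = 0.1), an alternative chosen after seeing the data.

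*Cdkn1a*, the classic p53 target, was close to absent from the lineage. Its level lay between 0.95 and 2.18 CPM in the 6 sums of RGC-like, IPC-like and PN-like cells, which held 42, 33 and 97 UMIs in all. None of the class comparisons passed for it (edgeR adjusted p of 0.528, 0.928 and 0.501).

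The pocket proteins moved in opposite directions from RGC-like to IPC-like cells. *Rbl1* was at 63.3 and 56.7 CPM in RGC-like, 32.9 and 23.8 CPM in IPC-like, and 5.84 and 7.06 CPM in PN-like cells, with no overlap between classes. It fell at both steps (log2 FC -0.995 ± 0.155, edgeR adjusted p = 0.00114, and -1.95 ± 0.16, edgeR adjusted p = 2.5e-05). *Rb1* was at 91.7 and 85.4 CPM in RGC-like, 138 and 136 CPM in IPC-like, and 97.8 and 96.9 CPM in PN-like cells. It rose from RGC-like to IPC-like cells (log2 FC 0.72 ± 0.09, edgeR adjusted p = 0.000259) and fell from there to neurons (log2 FC -0.35 ± 0.08, edgeR adjusted p = 0.00895).

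Per UMI, *Rb1* was higher in neurons than in RGC-like cells (log2 FC 0.38 ± 0.08, edgeR adjusted p = 0.00388), but per cell the sign turned (-0.07, edgeR adjusted p = 0.615), and with library sizes alone the difference was 0.14 (edgeR adjusted p = 0.185). The rise of *Rb1* from RGC-like to IPC-like cells was 0.30 per cell (edgeR adjusted p = 0.0552).

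**Figure D2:**
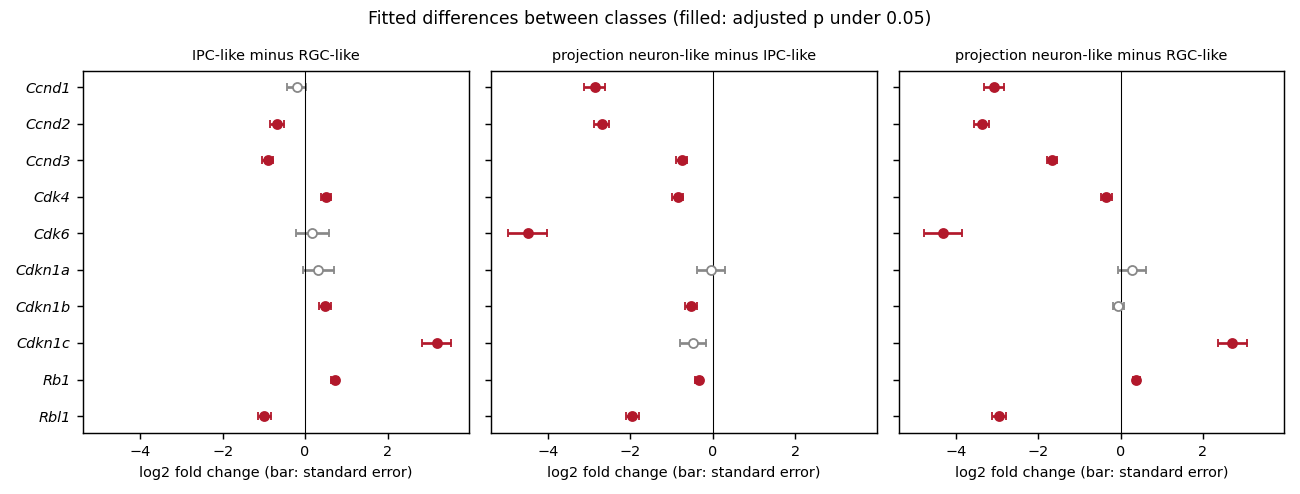
Fitted log2 fold change of each gene between RGC-like, IPC-like and PN-like cells, with bars of 1 standard error. Filled points passed an adjusted p of 0.05 and open points did not; *Cdkn1c* lies at 3.20 in IPC-like minus RGC-like cells, and *Cdk6* at -4.49 in PN-like minus IPC-like cells.

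MGE interneuron-like cells migrate into the cortex as postmitotic neurons and were compared with PN-like cells. Of the 10 genes, 4 passed (1 higher and 3 lower), where 35.5% of all genes did (13.3% higher and 22.3% lower). *Cdk4* was lower, at 128 and 141 CPM (log2 FC -1.48 ± 0.14, edgeR adjusted p = 0.000165). *Ccnd3* was lower as well (log2 FC -1.42 ± 0.29, edgeR adjusted p = 0.0054), on 10 UMIs, and its difference shrank to -0.46 (edgeR adjusted p = 0.155) when predicted doublets were kept. *Cdkn1b* was at 66.1 and 41.7 CPM (log2 FC -0.77 ± 0.17, edgeR adjusted p = 0.00773), with log2 differences of -0.46 in replicate 1 and -1.25 in replicate 3.

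*Rbl1* was the member that was higher in MGE interneuron-like cells, at 18.8 and 19.6 CPM (log2 FC 1.37 ± 0.24, edgeR adjusted p = 0.00277), and per cell the difference was 0.43 (edgeR adjusted p = 0.178). With the library as a block, *Ccnd1* (log2 FC 0.81, edgeR adjusted p = 0.0496) and *Cdkn1c* (-0.71, edgeR adjusted p = 0.0151) also passed. MGE interneuron-like cells had fewer UMIs per cell, with medians of 4528 and 4057 against 11323 and 10935, and held projection neuron markers at 2026 and 2116 CPM. The part of depth and of these markers in the differences was not tested.

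The clusters within each class showed where the members changed. They are given as levels without a test. RGC-like cells fell into clusters 4, 7, 14 and 12, of which 7 was led by histone genes and *Top2a* and 14 by *Cenpa* and *Cdc20*. Cluster 12 (93 and 378 cells) was led by *Ltbp1* and *Adamts19*, and had all 12 RGC markers and 6 of 8 IPC markers on. IPC-like cells fell into cluster 3, led by *Gadd45g* and *Neurog2* and with 8 IPC and 10 of the 12 RGC markers on, cluster 15, led by cycle genes, and cluster 6, which had 8 projection neuron and 7 IPC markers on. Cluster 8, led by *Pcp4*, *Nhlh1* and *Neurod1*, was the PN-like cluster with the most IPC markers on.

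*Cdkn1c* differed widely among these clusters. It was at 3.497 to 8.49 CPM in clusters 4, 7 and 14, and at 108 and 73.4 CPM in cluster 12. It was at 115 and 165 CPM in cluster 3, 145 and 303 CPM in cluster 6 and 225 and 354 CPM in cluster 8. The cycling cluster 15 stood apart from this order, at 40.3 CPM in replicate 1, below cluster 12, and at 173 CPM in replicate 3. The other 6 PN-like clusters lay between 54.3 and 103 CPM. A *Cdkn1c* UMI was present in 15.1% (9.18 to 23.7) and 10.0% (7.36 to 13.5) of the thinned cells of cluster 12, against 2.61% (1.27 to 5.29) and 1.61% (0.82 to 3.14) of cluster 4.

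The same cluster 12 stood low for *Ccnd1* and *Cdk6*. *Ccnd1* was at 28.0 and 11.0 CPM there and between 48.3 and 93.3 CPM in the other 3 RGC-like clusters. *Cdk6* was at 82.2 and 78.6 CPM against 195 to 297 CPM. *Ccnd2* did not share this, at 549 and 919 CPM against 607 to 804 CPM. Without cluster 12, the difference of *Cdkn1c* between IPC-like and RGC-like cells grew from a log2 FC of 3.20 to 4.92 (edgeR adjusted p = 3.95e-05). This alternative was chosen after seeing the data.

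*Ccnd1* and *Ccnd2* ended at different points. *Ccnd1* was at 100 and 73.1 CPM in cluster 3 and only 11.6 and 10.9 CPM in cluster 6, whereas *Ccnd2* was still at 337 and 375 CPM in cluster 6 and at 136 and 116 CPM in cluster 8. *Cdk6* was at 292 and 132 CPM in cluster 6 and at 24.3 and 6.38 CPM in cluster 8. *Cdk4* was at 535 and 584 CPM in cluster 8 and was at 174 and 183 CPM in cluster 0, which was led by *Hs3st4*. *Cdkn1b* ranged more widely among neurons, from 41.7 and 42.5 CPM in cluster 0 to 161 and 138 CPM in cluster 1, which was led by *Unc5d*.

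**Figure D3:**
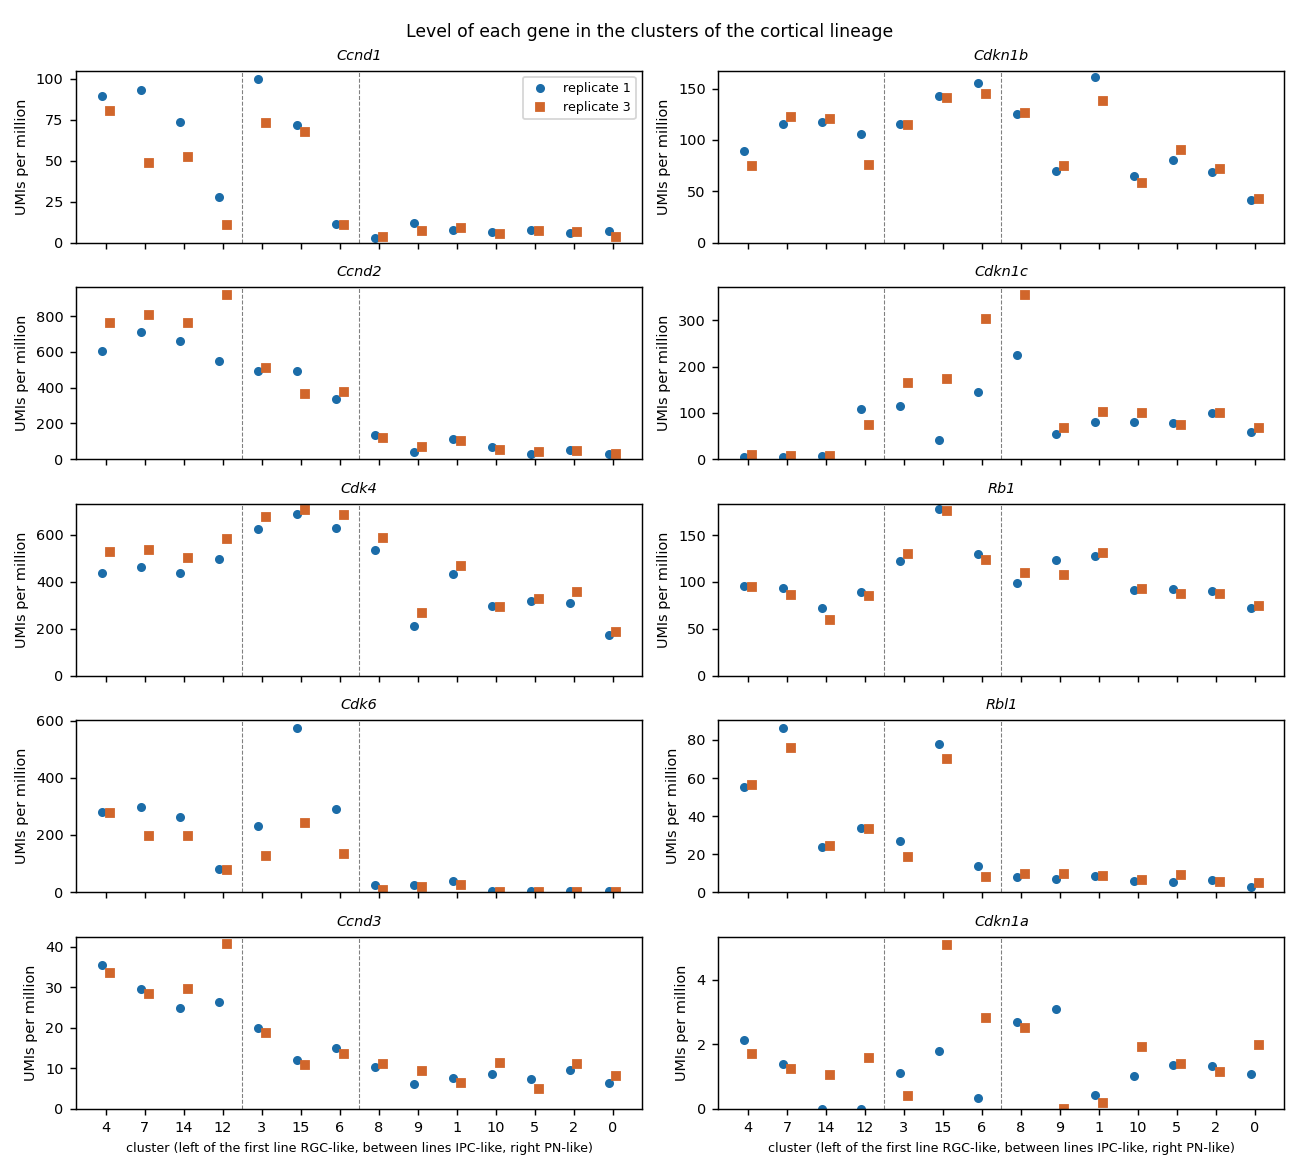
Level of each gene, in CPM, in the 14 clusters of the cortical lineage, with 1 point per library (circles, replicate 1; squares, replicate 3) and dashed lines between RGC-like, IPC-like and PN-like clusters. *Cdkn1c* is near 0 in clusters 4, 7 and 14 and peaks in cluster 8 at 225 and 354 CPM, whereas *Ccnd1* is at 28.0 and 11.0 CPM in RGC-like cluster 12, at 100 and 73.1 CPM in IPC-like cluster 3 and at 11.6 and 10.9 CPM in IPC-like cluster 6.

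Progenitors were then split by the phase called from 43 S and 54 G2M genes, none of which is a member, and 12 sums were fitted over 12651 genes. Genes that vary together with these lists would follow the call, so phase differences of such genes are descriptions and not independent tests. RGC-like cells were called G1 in 24.3% and 24.3%, S in 29.1% and 34.2% and G2M in 46.6% and 41.5% of cells. IPC-like cells were called G1 in 77.2% and 80.2%, which includes cells that may have left the cycle, since 278 and 451 of the 514 and 910 such cells came from cluster 6. S comprised only 48 and 84 IPC-like cells, and G2M 104 and 140. In RGC-like cells, 3 members rose and 1 fell from G1 to S, where 14.2% of all genes passed (8.64% higher and 5.54% lower), and 2 rose and 1 fell from G1 to G2M, where 13.4% did (7.96% and 5.45%). In IPC-like cells, 4 rose and 2 fell from G1 to S, where 17.8% of all genes passed (9.64% and 8.18%), and 2 rose and 1 fell from G1 to G2M, where 18.0% did (9.69% and 8.36%). With the library as a block, 5 members passed from G1 to G2M in RGC-like and 5 in IPC-like cells. The block also gave more calls over all 12651 genes, with 1653 higher and 1451 lower in RGC-like cells. In IPC-like cells these counts were 1687 and 1803. Between IPC-like and RGC-like cells of the same phase, 4 members were higher and 2 lower in G1, where 32.6% of all genes passed (15.7% higher and 16.9% lower). In S 3 were higher and 1 lower, where 17.3% passed (8.48% and 8.78%), and in G2M 4 were higher and 2 lower, where 27.8% passed (13.5% and 14.3%).

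*Rbl1* rose with S phase in both classes. In RGC-like cells it was at 26.7 and 25.2 CPM in G1, 72.9 and 65.4 CPM in S, and 71.6 and 62.8 CPM in G2M. In IPC-like cells it was at 17.6 and 9.37 CPM in G1, 65.1 and 73.05 CPM in S, and 75.3 and 65.7 CPM in G2M. The log2 FC from G1 to S was 1.44 ± 0.22 (edgeR adjusted p = 0.00085) in RGC-like and 2.32 ± 0.25 (edgeR adjusted p = 6.13e-05) in IPC-like cells. In S and G2M the differences between IPC-like and RGC-like cells were 0.01 ± 0.23 and 0.13 ± 0.20, neither of which passed (edgeR adjusted p of 0.991 and 0.699). In G1 IPC-like cells were lower (log2 FC -0.87 ± 0.23, edgeR adjusted p = 0.0142), by -0.51 in replicate 1 and -1.35 in replicate 3, and the call was lost without cells near a phase boundary (-0.54, edgeR adjusted p = 0.17). This is the gene whose promoter window holds the E2F-type letters printed above, and their part in the rise was not tested. *Cdk6* and *Ccnd3* also rose to S, in IPC-like and RGC-like cells respectively, and their windows held no such letters. For *Rb1* and *Ccnd1* no window was found.

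*Rb1* rose from G1 to S in both classes, and no difference between G2M and G1 of RGC-like cells passed for it. It was at 82.1 and 84.3 CPM in G1, 107 and 102 CPM in S and 86.4 and 73.5 CPM in G2M of RGC-like cells. The rise to S (log2 FC 0.37 ± 0.11, edgeR adjusted p = 0.0452) was a call that 4 of 7 alternatives lost, and the difference between G2M and G1 was -0.02 ± 0.11 (edgeR adjusted p = 0.933). In IPC-like cells it was at 125 and 122 CPM in G1, 214 and 211 CPM in S and 153 and 161 CPM in G2M, and the rise to S passed (log2 FC 0.72 ± 0.11, edgeR adjusted p = 0.000956). *Rb1* was higher in IPC-like than in RGC-like cells in every phase, by a log2 FC of 0.66 ± 0.11 in G1, 1.01 ± 0.11 in S and 1.03 ± 0.11 in G2M (edgeR adjusted p of 0.000706, 7.93e-05 and 2.67e-05).

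*Ccnd1* had its highest level in S phase IPC-like cells, at 251 and 228 CPM against 36.0 and 28.3 CPM in G1 and 50.2 and 44.1 CPM in G2M. The rise from G1 to S was 2.82 ± 0.33 on the log2 scale (edgeR adjusted p = 0.000119). In RGC-like cells it was at 52.8 and 25.2 CPM in G1 and 85.0 and 64.8 CPM in S, which did not pass (log2 FC 1.04 ± 0.34, edgeR adjusted p = 0.0615) but did with the library as a block (edgeR adjusted p = 0.000934). The block also gave a call from G1 to G2M in RGC-like cells (0.89, edgeR adjusted p = 0.00323), where the unblocked value was 0.92 ± 0.33 (edgeR adjusted p = 0.0932). Without cluster 12 the difference between S and G1 in RGC-like cells was 0.42 (edgeR adjusted p = 0.389).

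Within S phase, IPC-like cells exceeded RGC-like cells in *Ccnd1* (log2 FC 1.68 ± 0.32, edgeR adjusted p = 0.00351), where no difference between the classes as a whole passed. In G1 the difference was -0.10 ± 0.34 (edgeR adjusted p = 0.853), and without cluster 12 IPC-like cells were lower in G1 (-0.95, edgeR adjusted p = 0.02). The test of the difference between the 2 rises gave 1.78 ± 0.47 (edgeR adjusted p = 0.121), and with the block 1.76 (edgeR adjusted p = 0.00234). Of all genes, 0.751% passed that test without the block (0.577% higher and 0.174% lower) and 0.696% the one for G2M (0.561% and 0.134%), and none of the 10 members passed either. DESeq2 called 1 member for S and 0 for G2M. Of the 12651 genes, it called 169 higher and 51 lower for S, and 183 higher and 43 lower for G2M. In cluster 3, which had RGC markers on as well, S phase cells had 433 and 267 CPM of *Ccnd1*, on 21 and 53 cells, and in cluster 15 they had 144 and 203 CPM, on 26 and 27 cells.

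The other cyclins behaved differently. *Ccnd3* rose in S in RGC-like cells, from 22.5 and 28.3 CPM to 45.1 and 44.8 CPM (log2 FC 0.83 ± 0.16, edgeR adjusted p = 0.0044), and was back at 26.0 and 25.4 CPM in G2M. In IPC-like cells it fell from 17.2 and 15.9 CPM in G1 to 10.0 and 7.0 CPM in G2M (log2 FC -0.95 ± 0.22, edgeR adjusted p = 0.0121). IPC-like cells had less *Ccnd3* than RGC-like cells in each phase, by a log2 FC of -0.53 ± 0.16 in G1, where replicate 1 gave -0.30 and replicate 3 -0.77, of -0.94 ± 0.20 in S and of -1.51 ± 0.22 in G2M (edgeR adjusted p of 0.0253, 0.00718 and 0.000258).

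*Ccnd2* changed little with phase. In RGC-like cells it was at 585 and 697 CPM in G1, 656 and 903 CPM in S and 679 and 801 CPM in G2M, and no phase difference passed. Its rise to S in IPC-like cells, from 393 and 427 CPM to 573 and 669 CPM, passed only with the block (log2 FC 0.53, edgeR adjusted p = 0.0275; unblocked 0.54 ± 0.21, edgeR adjusted p = 0.102). IPC-like cells had less *Ccnd2* than RGC-like cells in G2M (log2 FC -0.78 ± 0.21, edgeR adjusted p = 0.0142), by -0.40 in replicate 1 and -1.23 in replicate 3. In G1 the difference was -0.54 ± 0.20 (edgeR adjusted p = 0.0613; with the block 0.0104 as adjusted p), and in S -0.33 ± 0.21 (edgeR adjusted p = 0.321).

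*Cdk6* rose from G1 to S in IPC-like cells in both libraries, from 245 and 114 CPM to 629 and 343 CPM (log2 FC 1.36 ± 0.43, edgeR adjusted p = 0.0489), a call close to the threshold that was lost with phases called on 1500 UMIs (edgeR adjusted p = 0.0681). The libraries differed in level in every phase of this class, which widened the error. With the library as a block, *Cdk6* also passed from G1 to G2M in IPC-like cells (1.03, edgeR adjusted p = 0.0005) and from G1 to S and to G2M in RGC-like cells (0.60 and 0.63, edgeR adjusted p of 0.0262 and 0.0174). The block likewise gave calls for IPC-like over RGC-like cells in S (0.96, edgeR adjusted p = 0.00135) and G2M (0.56, edgeR adjusted p = 0.0212). Without cluster 12, *Cdk6* in RGC-like cells differed by 0.05 between S and G1 (edgeR adjusted p = 0.971).

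*Cdk4* showed no phase difference that passed. It was at 433 and 557 CPM in G1, 499 and 570 CPM in S and 442 and 514 CPM in G2M of RGC-like cells, and at 620 and 674, 700 and 785, and 688 and 688 CPM in IPC-like cells. The adjusted p of edgeR was from 0.563 to 0.981 over both classes, and none passed with the block. IPC-like cells had more of it in G1 (log2 FC 0.48 ± 0.15, edgeR adjusted p = 0.0252) and in G2M (0.58 ± 0.15, edgeR adjusted p = 0.0119). In S the difference was 0.47 ± 0.15 (edgeR adjusted p = 0.0522, and 0.000624 with the block).

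*Cdkn1c* of RGC-like cells was found mainly in G1. It was at 70.6 and 85.8 CPM in G1, 2.93 and 5.23 CPM in S and 4.36 and 6.18 CPM in G2M. The log2 FC was -3.95 ± 0.64 from G1 to S (edgeR adjusted p = 0.00153) and -3.70 ± 0.58 from G1 to G2M (edgeR adjusted p = 0.00122). These calls rested on cluster 12, which held 64 of the 166 and 209 of the 382 RGC-like cells in G1 but 92.6% and 94.3% of their *Cdkn1c* UMIs (125 of 135 and 315 of 334). Without it the differences were -1.20 (edgeR adjusted p = 0.517) and -0.92 (edgeR adjusted p = 0.592). Within cluster 12 the level was 159 and 134 CPM in G1 and 0 and 6.42 CPM in S. In cluster 4 it was 9.0 and 12.4 CPM in G1 and 2.92 and 4.83 CPM in S.

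In IPC-like cells *Cdkn1c* was at 138 and 245 CPM in G1, 23.2 and 70.1 CPM in S and 45.2 and 179 CPM in G2M. The fall to S passed (log2 FC -1.99 ± 0.57, edgeR adjusted p = 0.0306), with an adjusted p of 0.0503 in DESeq2, and that to G2M did so only with the block (-0.81, edgeR adjusted p = 0.0097; unblocked -0.74 ± 0.47, edgeR adjusted p = 0.305). IPC-like cells exceeded RGC-like cells by a log2 FC of 3.34 ± 0.77 in S and 4.34 ± 0.59 in G2M (edgeR adjusted p of 0.0109 and 0.000187). In G1 the difference was 1.38 ± 0.47 (edgeR adjusted p = 0.0399), which DESeq2 (adjusted p = 0.194) did not call and which was 4.16 without cluster 12 (edgeR adjusted p = 0.000426). The falls in the 2 classes differed by 1.96 ± 0.88 for S and 2.95 ± 0.74 for G2M, which passed only with the block (edgeR adjusted p of 0.0321 and 0.000255, against 0.386 and 0.107).

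*Cdkn1b* also dipped in S in IPC-like cells, from 138 and 131 CPM in G1 to 79.0 and 83.8 CPM, and was at 162 and 156 CPM in G2M. The fall to S passed (log2 FC -0.78 ± 0.17, edgeR adjusted p = 0.00691). RGC-like cells showed 101 and 72.4 CPM in G1, 96.0 and 80.1 CPM in S and 112 and 125 CPM in G2M, with a rise from G1 to G2M (log2 FC 0.51 ± 0.15, edgeR adjusted p = 0.0382) that was 0.19 in replicate 1 and 0.80 in replicate 3. *Cdkn1b* was higher in IPC-like cells in G1 (log2 FC 0.75 ± 0.15, edgeR adjusted p = 0.0021) and G2M (0.48 ± 0.14, edgeR adjusted p = 0.0284) and showed no detectable difference in S (-0.10 ± 0.17, edgeR adjusted p = 0.746). The dip itself differed between classes only with the block (-0.85, edgeR adjusted p = 0.0285, against 0.121 without it), and the same held for the rise of *Rbl1* to G2M (1.03, edgeR adjusted p = 0.0269, against 0.21).

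**Figure D4:**
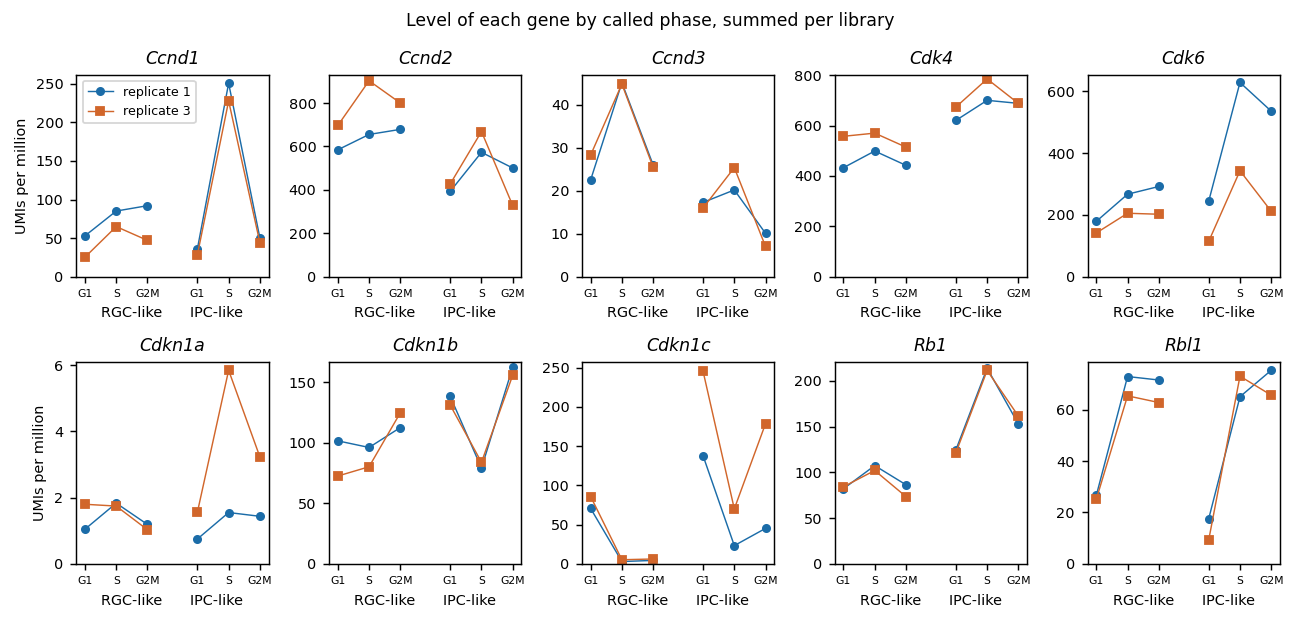
Level of each gene, in CPM, in RGC-like and IPC-like cells called G1, S and G2M, with lines joining the 3 phases of 1 library (circles, replicate 1; squares, replicate 3). *Ccnd1* peaks in S phase IPC-like cells at 251 and 228 CPM, *Rbl1* is higher in S and G2M than in G1 in both classes, and *Cdkn1c* of RGC-like cells is near 0 outside G1.

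The rest of the G1 pathway was described from 9 lists of 63 genes. E2F and DP factors, through which the pocket proteins act, were lower in IPC-like than in RGC-like cells for 7 of 10 (2 higher), where 22.4% of all genes were lower and 21.5% higher. Of the 9 tested by phase, 5 were lower and 1 higher in IPC-like cells in G1 (16.9% and 15.7% of all genes). In S 0 were lower and 1 higher (8.78% and 8.48%), and in G2M 3 were lower and 3 higher (14.3% and 13.5%). The part of phase in the class difference was not tested. These factors were lower in PN-like than in RGC-like cells for 10 of 10, where 29.7% of all genes were (median log2 FC -2.09 against 0.071 over all genes). *E2f8* (-6.15 ± 0.27), *E2f2* (-4.95 ± 0.39) and *E2f7* (-2.74 ± 0.20) fell most in neurons. From G1 to S in RGC-like cells 6 of 9 rose, where 8.64% of all genes did, and in IPC-like cells 7 of 9, where 9.64% did, led by *E2f7* with log2 FC of 3.97 ± 0.23 and 4.94 ± 0.24. *E2f7* and *E2f8* are repressors of the family.

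Cyclins E and A with CDK2 act after the G1 kinases. All 5 were lower in PN-like than in RGC-like and than in IPC-like cells, where 29.7% and 22.4% of all genes were. *Ccna2*, which drives S phase and entry into mitosis, fell by 6.47 ± 0.24 on the log2 scale from RGC-like cells, and *Cdk2* by 4.58 ± 0.16. All 4 that could be tested by phase rose from G1 to S in both classes (8.64% and 9.64% of all genes). As phases were called from S genes, this rise is a description.

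Of the INK4 inhibitors, which bind CDK4 and CDK6 directly, *Cdkn2a* and *Cdkn2b* were too low to test. *Cdkn2c* (p18) was lower in IPC-like than in RGC-like cells (log2 FC -1.14 ± 0.15, edgeR adjusted p = 0.000433) and fell steeply in neurons (-4.42 ± 0.20, edgeR adjusted p = 1.12e-06). Within G1, S and G2M, 0 of the 2 tested genes were lower in IPC-like cells (16.9%, 8.78% and 14.3% of all genes). In each phase 1 of the 2 was higher (15.7%, 8.48% and 13.5% of all genes). The part of phase in the class difference was not tested. *Cdkn2d* (p19) did not pass in neurons (0.30 ± 0.14 against RGC-like cells, edgeR adjusted p = 0.0844), a value given after it was seen. Both rose from G1 to G2M in RGC-like cells (3.496 ± 0.195 and 3.098 ± 0.189).

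The remaining pocket protein gene, *Rbl2* (p130), showed no difference that passed between the whole classes of the lineage (log2 FC of -0.24 ± 0.12, 0.20 ± 0.12 and -0.04 ± 0.11, edgeR adjusted p of 0.134, 0.184 and 0.775). It rose from G1 to G2M in RGC-like cells (0.64 ± 0.16, edgeR adjusted p = 0.0208). Within G2M it was past the threshold as lower in IPC-like than in RGC-like cells (log2 FC -0.62), and within G1 and S no difference passed. The CDK-activating kinase phosphorylates CDK4 and CDK6. Of its 3 genes, none passed between the whole IPC-like and RGC-like classes, where *Cdk7* was at 0.23 ± 0.14, *Ccnh* at -0.16 ± 0.08 and *Mnat1* at 0.0027 ± 0.085. Within G2M 1 of the 3 was lower in IPC-like cells, where 14.3% of all genes were. *Mnat1* alone was lower in neurons than in IPC-like cells (-1.07 ± 0.09, edgeR adjusted p = 2.01e-05).

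Among 8 genes for the breakdown of D-type cyclins and CDKN1B, 3 were higher and 3 lower in IPC-like than in RGC-like cells (21.5% and 22.4% of all genes). *Skp2*, which marks CDKN1B for destruction, was lower in IPC-like cells (-1.18 ± 0.14), lower still in neurons (-0.80 ± 0.14 against IPC-like cells), and higher in S than in G1 in IPC-like cells (2.28 ± 0.17). Of 6 genes listed as inducers of D-type cyclins, 4 were lower and 1 higher in IPC-like than in RGC-like cells (22.4% and 21.5% of all genes). Among the lower ones were the Wnt pathway factors *Tcf7l1* (-2.90 ± 0.28), *Tcf7l2* (-2.69 ± 0.24) and *Lef1* (-1.44 ± 0.40). Whether each listed gene induces these cyclins in these cells was not tested. *Myc* was higher in neurons than in IPC-like cells (1.75 ± 0.23). None of the 5 genes of this list that could be tested by phase passed from G1 to S in either class in edgeR.

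*Cdkn1a* was set beside 12 genes of the p53 pathway and 14 genes of the dissociation stress response. Of the p53 genes, 3 were higher and 1 lower in IPC-like than in RGC-like cells, led by *Trp53inp1* (3.07 ± 0.14) and *Phlda3* (-2.63 ± 0.40). These 4 of 12 stand beside 43.8% of all genes. In PN-like against RGC-like cells 5 were higher and 3 lower, and of the stress genes 4 of 14 were higher and 9 lower, beside 35.2% higher and 29.7% lower among all genes. Their summed level was 665 and 671 CPM in RGC-like, 458 and 440 CPM in IPC-like and 335 and 330 CPM in PN-like cells, while *Cdkn1a* stayed near 1 to 2 CPM in all of them.

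Outside the lineage, *Cdkn1a* had 1 place of high expression. In Cajal-Retzius-like cells, early neurons of the cortical surface that secrete reelin, it was at 110 and 483 CPM (38 and 88 cells, 660 UMIs in all). A UMI was found in 18.4% (9.22 to 33.4) and 57.6% (47.0 to 67.6) of the thinned cells against 0 of 48 and 1 of 61 red blood cell-like cells. Without thinning the shares were 63.2% and 77.3%. The libraries differed widely, and no test was run for this class. The summed level of 7 hem and choroid plexus markers in these cells also differed, at 560 and 1599 CPM, and its part in the difference was not tested. *Cdkn1a* was among the 10 leading genes of the cluster, together with *Reln* and *Trp73*, and the gene was not used to build it. All 8 Cajal-Retzius markers were detected in both libraries. The summed level of the stress genes was 540 and 544 CPM there, below that of RGC-like cells and above that of IPC-like and PN-like cells. Its part in the level of *Cdkn1a* was not tested. Endothelial-like cells followed with 84.8 and 30.6 CPM.

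*Cdkn1c* was highest in meningeal-like cells, at 1185 and 957 CPM, ahead of hem and choroid plexus-like cells (283 and 239 CPM) and endothelial-like cells (217 and 136 CPM). *Ccnd1* was highest in endothelial-like cells (215 and 214 CPM), followed by pericyte-like cells (103 and 170 CPM) and microglia-like cells (119 and 135 CPM), and the ranges of the last pair overlapped. *Ccnd3* was highest in meningeal-like (183 and 125 CPM) and pericyte-like cells (123 and 136 CPM), whose ranges overlapped. *Ccnd2* of interneuron-like cells of the caudal ganglionic eminence was at 858 CPM in replicate 1 (331 cells) and 213 CPM in replicate 3 (29 cells).

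**Figure D5:**
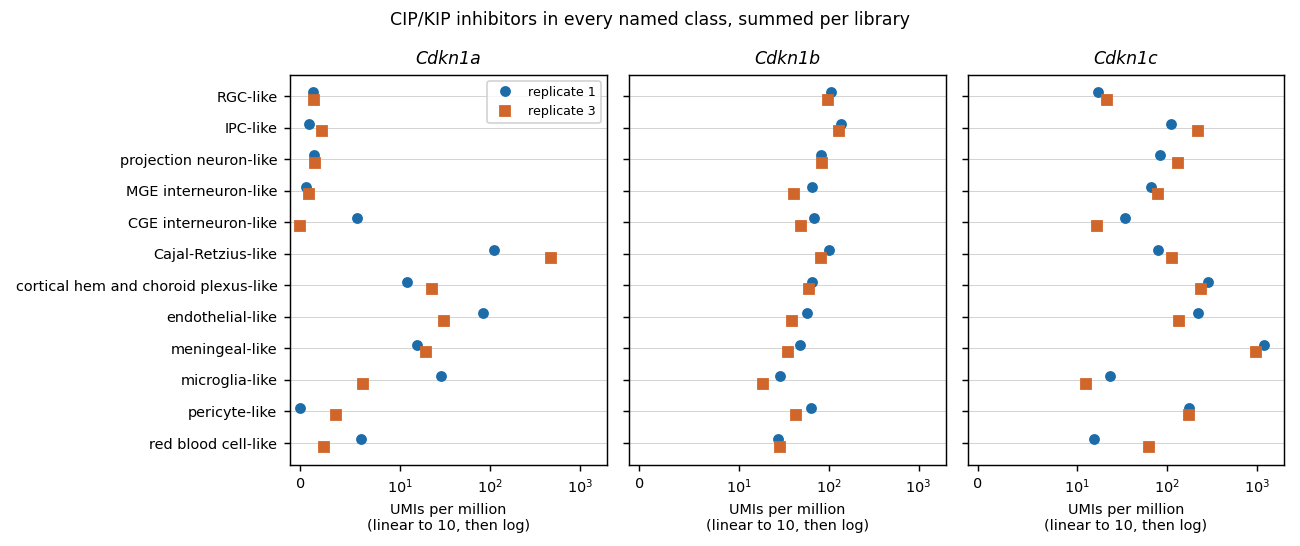
Level of the 3 CIP/KIP inhibitor genes in 12 named classes, in CPM on an axis that is linear up to 10 and logarithmic above, with 1 point per library (circles, replicate 1; squares, replicate 3). *Cdkn1a* stands out in Cajal-Retzius-like cells (110 and 483 CPM) and *Cdkn1c* in meningeal-like cells (1185 and 957 CPM).

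Over the 25 clusters of at least 50 cells, the 2 genes most like each member in pattern were looked up among 11508 genes, by Pearson's r of log2(CPM + 1), as a description of clusters that share libraries and differ in depth. *Rbl1* was most like the DNA repair genes *Rad54l* (r = 0.946) and *Rad54b* (0.933). *Rb1* was most like *Fbxo28* (0.936) and *Mdm2* (0.933), *Cdkn1b* like *Ppm1d* (0.923) and *Vangl2* (0.901), and *Cdk4* like *Brcc3* (0.944) and *Apex1* (0.944). *Cdk6* was most like *Nek7* (0.914) and *Gli3* (0.889), and *Ccnd2* like *Dusp10* (0.900) and *Peg12* (0.890). *Ccnd1* matched *Ctnna1* (0.903) and *Tpm4* (0.903), *Ccnd3* matched *Plin3* (0.960) and *Serpinh1* (0.934), *Cdkn1a* matched *Abcc6* (0.919) and *Ndnf* (0.853), and *Cdkn1c* matched *Osbpl5* (0.869) and *Tmem176b* (0.826). Among the members themselves, *Ccnd2* with *Rbl1* (0.836) and with *Cdk6* (0.827) and *Cdk4* with *Cdkn1b* (0.803) were the closest pairs.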

How the data were processed

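For each gene and cell barcode the authors deposited a UMI count, made from 10x Genomics 3' v3.1 libraries with Cell Ranger 7.0.0 (genome build mm10, per the submitters' processing notes). The annotation version and the counting of introns are not given in the sources used here. The 10 genes, the lists and the comparisons were chosen with earlier results of these data known.

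Cells needed 1500 to 60000 UMIs, of which less than 10% mitochondrial (710 and 1387 removed), limits the study's methods give for single nuclei, and predicted doublets (304 and 629, scored as in Scrublet) were removed. Leiden clustering (2000 variable genes, 30 components, 15 neighbours, resolution 1.0) was done without the members and their pathway genes. Clusters were named from 112 markers. A marker was on when its log level, scaled over clusters, exceeded 0.5 and at least 10% of cells held it, and a name needed 3 markers. Median depth of kept cells was 10417 and 10659 UMIs.

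UMIs were summed per class and library. Levels are UMIs per 1000000 UMIs of these sums (CPM). The test was the quasi-likelihood test of edgeR (TMM scaling, low count filter, prior count of 2) with Benjamini-Hochberg adjustment and a threshold of 0.05, and checked on simulated data. Phase genes were left out of the phase fits. Sums of 1 replicate number come from 1 library, so the number pairs them. The correlation of their deviations was 0.0213 to 0.252 over 6 pairs of class sums and 0.109 to 0.394 over 15 pairs of phase sums. The fit had no block, and the block on the library was an alternative. All 10 genes are named, and pathway genes by a rule of up to 3 per list and comparison, with the largest change among those past the threshold and alike in both libraries, and lists of up to 3 genes in full. Alternatives were other scales, DESeq2, no filter, leaving out a library, doublets kept, stricter cells, thinned cells, other clusterings and other phase calls. Gene positions and promoters are from RefSeq on GRCm38.p6, overlapping genes from GENCODE vM39. Software was Python 3.11.15, scanpy 1.11.5, R 4.3.3, edgeR 4.0.16 and DESeq2 1.42.0.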

Additional observations from a re-analysis of the deposited data

How the results depend on the processing

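Member log2 differences past the threshold kept direction and call in 480 of the 513 recomputations that kept both libraries, were no longer past it in 32 and changed sign in 1 (*Rb1*, projection neuron-like minus RGC-like, -0.069 with the number of cells as the scale). Of those not past it, 391 stayed so, 63 passed and 33 changed sign. The block on the library ended no call and gave 19 more, each given beside its result above or close to it. Leaving out a library leaves no residual degrees of freedom, so those fits gave values with no test (215 within the spread, 36 moved) and no counts. The number of members past the threshold became 4 (from 7) for IPC-like minus RGC-like and 8 (from 4) for MGE interneuron-like minus projection neuron-like cells with the number of cells as the scale. On that scale, of 15143 genes, 1443 were higher and 6457 lower in the first comparison, and 601 and 9877 in the second. Without a filter on low counts the number of members became 8 for MGE interneuron-like minus projection neuron-like cells, where 1955 of 24884 genes were higher and 4131 lower. It became 5 (from 3) for G2M minus G1 in RGC-like cells, where 1258 of 22857 genes were higher and 839 lower. For the class difference of the S and G2M changes it became 3 and 2 (from 0). Of 22857 genes, 229 were higher and 265 lower there for S, and 270 and 247 for G2M. With the replicate block the number of members became 5 (from 3) for G2M minus G1 in both progenitor classes, and 3 and 2 for the class differences. With DESeq2 it became 1 for that of S. The counts of all genes for these settings follow below. Without cells near a phase boundary the number of members became 3 (from 6) for IPC-like minus RGC-like cells in G1, where 1444 of 12251 genes were higher and 2111 lower. Genes past the threshold numbered 5475 for MGE interneuron-like minus projection neuron-like cells, 10478 with the number of cells as the scale and 3647 with stricter cells. The block gave 3052 (from 1794) and 3104 (from 1696) genes for S and G2M minus G1 in RGC-like cells, 3490 (from 2283) for G2M minus G1 in IPC-like cells, and 482 (from 95) and 487 (from 88) for the class differences of S and G2M, where DESeq2 gave 220 and 226 and no filter 494 and 517. Without cluster 12 the RGC-like counts were 1094 and 1021.

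Signs changed as follows, and the cause was not tested. With the number of cells as the scale, *Cdk6* (-0.23) and *Cdkn1a* (-0.079) did so in IPC-like minus RGC-like cells, *Cdkn1a* (-0.12) in projection neuron-like minus RGC-like cells, and *Ccnd1* (-0.085) and *Rb1* (-0.79, edgeR adjusted p = 0.000422) in MGE interneuron-like minus projection neuron-like cells. With stricter cells it was *Cdk6* (-0.078) in IPC-like minus RGC-like, *Cdkn1b* (0.042) in projection neuron-like minus RGC-like and *Rb1* (-0.013) in MGE interneuron-like minus projection neuron-like cells. Other settings of the class fits were *Cdk6* -0.046 without phase genes in the clustering, *Cdkn1b* 0.10 with thinned cells, *Ccnd2* 0.42 and *Cdk6* 1.40 in MGE interneuron-like cells with doublets kept, and, without cluster 6, *Ccnd1* 0.37 in IPC-like minus RGC-like and *Cdkn1a* 0.0042 in projection neuron-like minus IPC-like cells. In S minus G1 of RGC-like cells *Cdkn1b* was -0.0019 without cells near a boundary and -0.0062 with phases from 1500 UMIs. In G2M minus G1 of RGC-like cells *Ccnd3* was -0.0099 with library sizes only and -0.12 with 1500 UMIs, *Cdk4* 0.028 and *Rb1* 0.017 without a filter, and *Cdk4* 0.11, *Cdk6* -0.040 and *Rb1* 0.018 without cluster 12. *Ccnd2* was -0.061 in G2M minus G1 of IPC-like cells without a filter. Between classes in G1, *Ccnd1* was 0.14 without cells near a boundary and *Cdk6* -0.48 without cluster 12, and in S *Cdkn1b* was 0.13 with 1500 UMIs and *Rbl1* -0.049 without a filter. In the class difference of the S change *Cdk4* was 0.092 with library sizes only, 0.040 with DESeq2, 0.050 without cells near a boundary and 0.090 with 1500 UMIs, and in that of the G2M change -0.0082 without a filter. The share of calls that were higher moved with the scale. It was 53.5% for projection neuron-like minus IPC-like cells and 42.2% with library sizes only, and 54.3% for projection neuron-like minus RGC-like cells, 41.6% with library sizes only and 31.95% with the number of cells. It was 49.01% for IPC-like minus RGC-like cells and 18.3% with the number of cells, and 37.4% for MGE interneuron-like minus projection neuron-like cells, 53.2% with library sizes only, 47.5% with DESeq2 and 5.74% with the number of cells. It was 48.2% and 37.8% (library sizes only) between classes in G1. DESeq2 gave 66.1% against 54.1% in S and 66.15% against 53.7% in G2M of IPC-like cells. The number of cells moved the median of all genes to -0.41 for IPC-like minus RGC-like, -0.37 for projection neuron-like minus RGC-like and -1.03 for MGE interneuron-like minus projection neuron-like cells.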
